A study of Homo sapiens with 5 samples.

Results

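The clustered protocadherins are cadherin-type adhesion receptors encoded side by side on chromosome 5 in the alpha, beta and gamma clusters. All rows of the deposited count table whose gene symbol begins with PCDHA, PCDHB or PCDHG were taken, and there were 3 such genes among 16677 rows: PCDHGC3, PCDHGA11 and PCDHGC4. All 3 belong to the gamma cluster. GENCODE release 29 lists 59 genes and pseudogenes in the clusters. The table holds 0 of the 16 alpha entries, 0 of the 19 beta entries and 3 of the 24 gamma entries, and the other 56 were not analysed here.

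In neurons, each cell switches on a small set of these genes, each from its own promoter, and so acquires a surface identity by which it recognises its own branches. In the alpha and gamma clusters a long first exon is spliced to constant exons that the genes of the cluster share. The first exon encodes the extracellular part, the membrane span and the start of the cytoplasmic part. The choice is made with the help of the DNA-binding protein CTCF and the cohesin ring and is linked to DNA methylation of the promoters. The C-type genes at the end of the alpha and gamma clusters are regulated apart from this stochastic choice. A culture grown from 1 cell can carry that cell's choice to all its descendants, so these genes can differ between clones of a cell line.

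RNA was sequenced from 5 cultures of HEK293, a long-established line of human embryonic kidney origin, grown under basal conditions. Per the labels, 2 cultures had the wild-type genotype (wild-type 1 and 2) and 3 had rs11607019 changed from T to C (variant 1, 2 and 3), which the series title places in SIRT3, a mitochondrial deacetylase gene. The labels do not say whether a library is a clone, a pool of clones or a repeated culture, so p-values measure the spread between these libraries, which may be technical. Library totals ran from 17122569 to 17596084 counts. Of 8 genes read as HEK293 markers, 4 were in the table (VIM, KRT8, KRT18 and PAX2) and EYA1, NEFL, NEFM and INA were not analysed here, and of 7 markers of other cell types only COL1A1, a fibroblast collagen, was. SIRT3 had 495 and 514 counts in the wild-type libraries and 458, 275 and 535 in variant 1, 2 and 3, and between the groups its adjusted p by edgeR was 0.815.

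The table has a floor that bears on isoform choice. Its lowest count in any library was 3, so a gene with fewer than 3 counts in any single library could not appear in it. An isoform silent in 1 culture and active in another, the clearest sign of a clonal choice, would therefore not be seen, and the values below describe 3 genes that were detected in every library.

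The 3 members share a gene structure that limits what their counts hold. In GENCODE release 29 (GRCh38, forward strand), PCDHGA11 (ENSG00000253873) spans chr5:141421047-141512979, PCDHGC3 (ENSG00000240184) spans chr5:141475947-141512979 and PCDHGC4 (ENSG00000242419) spans chr5:141484997-141512979. Their main transcripts have first exons of 2466, 2544 and 2442 bases, followed by the same 3 constant exons of 59, 89 and 2033 bases. The first of the constant exons, at chr5:141494807-141494865, is annotated in 22 of the 24 gamma entries. It is shown because a read that falls in it cannot be given to any one gamma gene:

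Constant exon: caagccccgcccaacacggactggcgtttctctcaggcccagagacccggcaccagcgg

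Exonic bases that no other gene shares on the same strand came to 3633 of 5814 in PCDHGA11, 3251 of 5432 in PCDHGC3 and 2793 of 4974 in PCDHGC4. Other protein-coding gamma genes outside the table had between 2459 and 5729 such bases. Of the 50-base windows in the unshared bases, 0% in PCDHGC3, 0% in PCDHGC4 and 0.809% in PCDHGA11 also occur in a transcript of another gene. The submitters' processing notes name HISAT2 and HTSeq. How the counting treated reads in shared exons, and whether it used the strand, is not given in the sources used here.

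Each gamma gene has its own promoter. The stretches below come from the RefSeq promoter windows (GRCh38.p14, forward strand), which run from 250 bases before to 50 bases after a gene's start, and all 3 members matched by symbol. PCDHGC4 has 2 starts in that table and the others have 1, and the first listed start of each gene was used. Each stretch is shown because it holds the 4 bases CGCT, a core known from many promoters of these clusters. These bases alone do not identify a promoter element, since 69.4% of all promoters hold them. Whether any stretch, that of PCDHGC4 included, holds such an element was not tested. Capitals mark CCGCTG, which begins 71, 63 and 64 bases before the start of PCDHGC3, PCDHGC4 and PCDHGA11, and the same bases lie 207 before the other start of PCDHGC4:

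PCDHGC3 (chr5:141475870-141475919): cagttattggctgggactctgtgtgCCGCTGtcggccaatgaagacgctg
PCDHGC4 (chr5:141484942-141484991): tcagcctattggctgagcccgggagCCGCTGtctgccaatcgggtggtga
PCDHGA11 (chr5:141420962-141421011): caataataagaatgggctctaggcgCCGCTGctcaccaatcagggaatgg

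Both strands were searched for each motif, and the core lies within the longer motif. The core CGCT was found in the windows of all 3 members, of 20 of 20 gamma genes and of 46 of 47 clustered protocadherin genes with a window, against 69.4% of all 27305 promoters. The motif in capitals was in 13 of the 20 gamma windows and in 22.4% of all promoters. The longer string of CCGCTG with CCAAT 4 bases further on was in the 3 members' windows, in no other clustered protocadherin window and in 10 promoters in all. CCGCTG and the longer string were picked from the members' own sequences, so their matches there describe the choice. A 12-base form of the CTCF motif was in 0 of the 20 gamma windows and in 10.6% of all promoters.

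PCDHGC3, a C-type gamma protocadherin that is also expressed outside the nervous system, was the most abundant member. It had 544 and 532 counts in the wild-type libraries and 765, 574 and 547 counts in variant 1, 2 and 3. As TMM-normalised CPM (each count relative to its own library's depth, after scaling by the trimmed mean of M-values), these were 31.7 and 30.3 in wild type and 44.2, 32.9 and 30.9 in the variant. Variant 1 was the highest library, and the other 4 lay close together, with both groups overlapping. The 95% Wilson interval of variant 1, 41.2 to 47.4 CPM, did not overlap the others, which together ran from 27.9 to 35.8 CPM. Wilson intervals take in counting error alone and not differences between cultures. Molecules were not tagged with identifiers, so a molecule read more than once could make them too narrow.

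PCDHGA11, an A-type isoform of the kind chosen at random in neurons, was the only member outside the C type. Its counts were 116 and 103 in wild type and 139, 106 and 126 in variant 1, 2 and 3. Its levels were 6.76 and 5.87 CPM in wild type and 8.03, 6.08 and 7.12 CPM in the variant. Variant 1 was again the highest library and wild-type 2 the lowest, but the Wilson intervals of these libraries, 6.80 to 9.48 and 4.84 to 7.12 CPM, overlapped. The highest library was 1.37 times the lowest.

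PCDHGC4, a C-type isoform that depends on partner protocadherins to reach the cell surface, was the least abundant. Its counts were 28 and 26 in wild type and 28, 18 and 40 in variant 1, 2 and 3. Its levels were 1.63 and 1.48 CPM in wild type and 1.62, 1.03 and 2.26 CPM in the variant. Both the lowest library, variant 2, and the highest, variant 3, carried the variant, and the wild-type libraries lay between them. Their Wilson intervals, 0.654 to 1.63 CPM and 1.66 to 3.08 CPM, did not overlap.

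**Figure D1:**
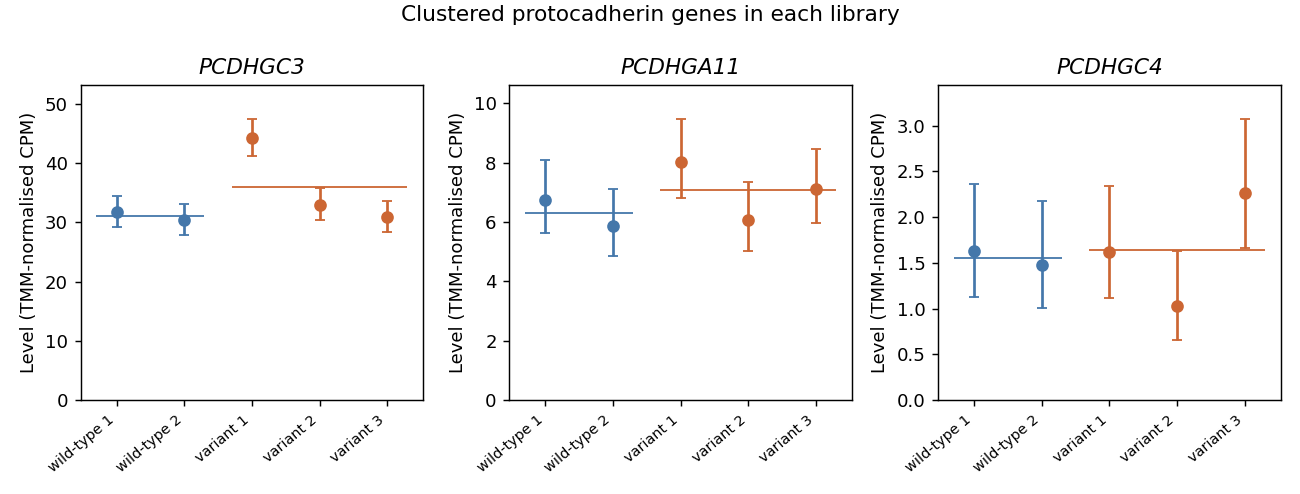
Level of the 3 clustered protocadherin genes in each library, in TMM-normalised CPM on an axis from 0 that differs between panels. Points are libraries (blue wild type, orange variant), bars are 95% Wilson intervals of the count and horizontal lines are group means. PCDHGC3 is highest in variant 1 at 44.2 CPM, and the other libraries lie between 30.3 and 32.9 CPM.

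Between genes, levels were compared per kilobase of unshared exonic sequence. PCDHGC3 stood at 10.5 ± 1.78 CPM per kilobase (SD over 5 libraries), PCDHGA11 at 1.86 ± 0.238 and PCDHGC4 at 0.575 ± 0.157. This order held in each of the 5 libraries, and the ranges of the genes did not overlap. PCDHGC3 ran from 9.33 to 13.6, PCDHGA11 from 1.62 to 2.21 and PCDHGC4 from 0.370 to 0.809 CPM per kilobase.

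The mix of the 3 isoforms was described by each gene's share of their summed counts, which were 688 and 661 in wild type and 932, 698 and 713 in variant 1, 2 and 3. PCDHGC3 took 79.1% and 80.5% in wild type and 82.1%, 82.2% and 76.7% in the variant. PCDHGA11 took between 14.9%, in variant 1, and 17.7%, in variant 3. The same gene led in every library, and for both PCDHGC3 and PCDHGA11 the shares of the groups overlapped.

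PCDHGC4 took 4.07% and 3.93% in wild type and 3.0%, 2.58% and 5.61% in variant 1, 2 and 3. The Wilson intervals of variant 2 (1.64% to 4.04%) and variant 3 (4.15% to 7.55%) did not overlap. These intervals hold counting error alone, on 18 and 40 counts, and the pair was picked as the lowest and the highest of the 5 libraries. In bulk RNA, fewer cells that use an isoform and less RNA of it per cell cannot be told apart.

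To describe clone-like choices, the log2 level of each gene in a library was set against the median of the other 4 libraries, and a distance of at least 4-fold (2 on the log2 scale, prior count 0.5) was counted. Of the 16310 genes tested, 1.09% had such a library, and 0 of the 3 members did. The largest distances were −0.64 for PCDHGC4 in variant 2, which rests on 18 counts, 0.54 for PCDHGC4 in variant 3 and 0.50 for PCDHGC3 in variant 1. PCDHGA11 lay between −0.24, in wild-type 2, and 0.32, in variant 1. The highest library was at least 1.5 times the lowest at 57% of tested genes, and among the members only PCDHGC4 reached this, at 2.19 times.

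At these 3 genes no library was 4-fold from the others, a distance that 1.09% of all tested genes reached. The table's floor means that an on or off state could not have been seen at zero, so these values cannot show whether there was one. Only PCDHGA11 is of the kind chosen at random in neurons, since PCDHGC3 and PCDHGC4 are of the C type. The distance between libraries over the members (root mean square of log2 differences) was on average larger within groups than between them. It averaged 0.344 over the 6 pairs of libraries from different groups and 0.428 over the 4 pairs within a group. The closest pair was wild-type 1 with wild-type 2, at 0.145, and the farthest was variant 2 with variant 3, at 0.655. The other variant pairs stood at 0.417 and 0.496, and pairs from different groups ran from 0.271 to 0.413. The average within groups thus joins a close wild-type pair to scattered variant libraries. Each gene has equal weight in this distance, and the farthest pair rests mostly on PCDHGC4. In variant 2 and variant 3 PCDHGC4 stood at 1.03 and 2.26 CPM, on 18 and 40 counts. PCDHGC3 stood at 32.9 and 30.9 CPM in these libraries, and PCDHGA11 at 6.08 and 7.12 CPM. The distance without PCDHGC4 was not computed. After correction for the GC content and length of transcripts the averages were 0.352 and 0.499, the wild-type pair stood at 0.278 and the closest pair was wild-type 1 with variant 1, at 0.220. Over all tested genes the averages were 0.547 between groups and 0.525 within them. Pairs share libraries, so these values are descriptions with no test.

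A protocadherin outside the clusters did differ sharply between libraries. PCDH19, an X-linked protocadherin of the delta type, was 1 of 7 tested genes among 16 listed protocadherins and FAT cadherins outside the clusters. Its levels were 66.4 and 7.41 CPM in wild type and 8.15, 56.5 and 4.40 CPM in variant 1, 2 and 3. Wild-type 1 and variant 2 were high and the other 3 libraries low, so the split crossed the groups (edgeR adjusted p 0.910 between groups). The distances of the high libraries from the median of the others were 3.09 and 2.86 on the log2 scale. The other 6 genes of this list (PCDH1, PCDH7, PCDH12, FAT1, FAT2 and FAT4) had no library 4-fold from the median. Of all tested genes 1.09% had such a library. With 3 members and 7 listed genes, these counts cannot show a contrast between clustered and other protocadherins. Neither library that was high for PCDH19 was the highest library of any clustered member. Of the 16310 tested genes, wild-type 1 was the highest library at 4187 and variant 2 at 2989. Whether the split of PCDH19 bears on the members was not tested.

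**Figure D2:**
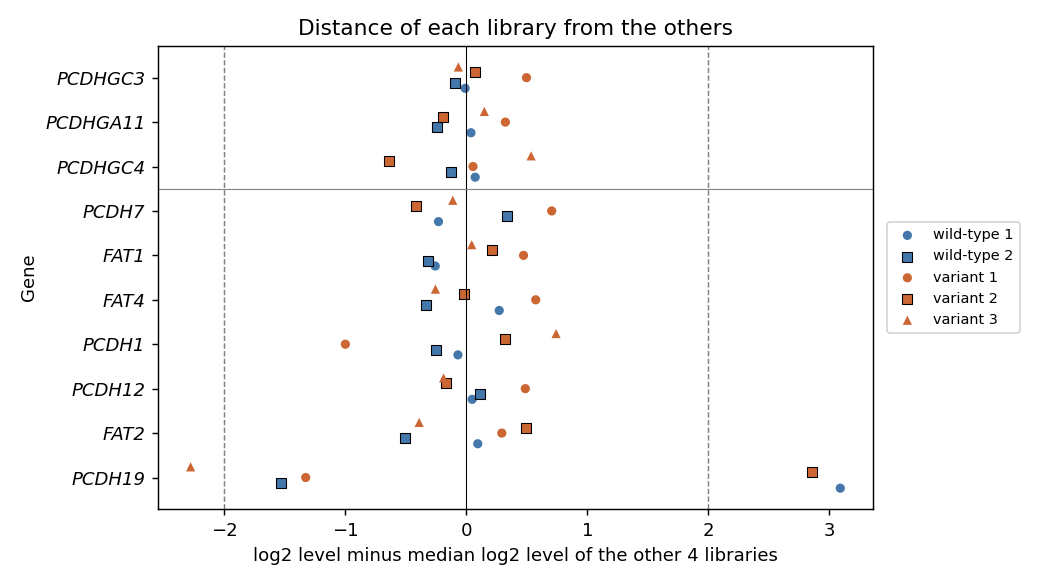
Distance of each library from the median of the other 4, on the log2 scale, for the 3 clustered protocadherins (above the grey line) and 7 other protocadherins and FAT cadherins. Dashed lines mark 4-fold. The clustered genes stay between −0.64 and 0.54, while PCDH19 reaches 3.09 in wild-type 1 and 2.86 in variant 2.

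The groups were then compared across all genes. At an adjusted p under 0.05 edgeR's quasi-likelihood test called 0 of the 3 members, and 0% of the 16310 genes tested. At an unadjusted p under 0.05 it called 0 of the 3 members and 7.62% of all genes. DESeq2's Wald test called 0 of the 3 members and 32 of all genes (0.196%) at an adjusted p under 0.05, with 1265 genes left without an adjusted p, and limma-voom called 0 of the 3 and 0% of all genes. The groups did not overlap at 24.8% of tested genes, and they overlapped at each of the 3 members.

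PCDHGC3 averaged 31.02 ± 0.967 CPM in wild type (SD, n = 2) and 36.0 ± 7.17 CPM in the variant (SD, n = 3). On the log2 scale the variant exceeded wild type by 0.22, with an SE of 0.20 and a 95% interval of −0.24 to 0.67 (edgeR adjusted p 0.807). The difference was smaller than the spread of the variant libraries and rested on variant 1, without which it was 0.04. Once each library was corrected for the GC content and length of transcripts it was 0.07.

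PCDHGA11 averaged 6.32 ± 0.627 CPM in wild type (SD, n = 2) and 7.08 ± 0.974 CPM in the variant (SD, n = 3), a log2 fold change of 0.16 (SE 0.26, interval −0.42 to 0.75, edgeR adjusted p 0.892). It was 0.06 without variant 1, 0.07 without wild-type 2, 0.27 without wild-type 1, 0.26 without variant 2 and 0.02 after the correction. PCDHGC4 averaged 1.56 ± 0.106 CPM in wild type (SD, n = 2) and 1.64 ± 0.613 CPM in the variant (SD, n = 3), a log2 fold change of 0.07 (SE 0.41, interval −0.84 to 0.98, edgeR adjusted p 0.976). The sign of the PCDHGC4 value turned to −0.23 without variant 3 and to −0.07 after the correction, and it was 0.32 without variant 2, 0.14 without wild-type 1 and 0.01 without wild-type 2.

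These intervals leave room for differences of some size. As folds they run from 0.846 to 1.59 for PCDHGC3, from 0.747 to 1.68 for PCDHGA11 and from 0.559 to 1.98 for PCDHGC4. The summed level of the 3 members was 40.1 and 37.7 CPM in wild type and 53.9, 40.1 and 40.3 CPM in variant 1, 2 and 3. The log2 ratio of the group means of this sum was 0.20, and 0.05 without variant 1.

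**Figure D3:**
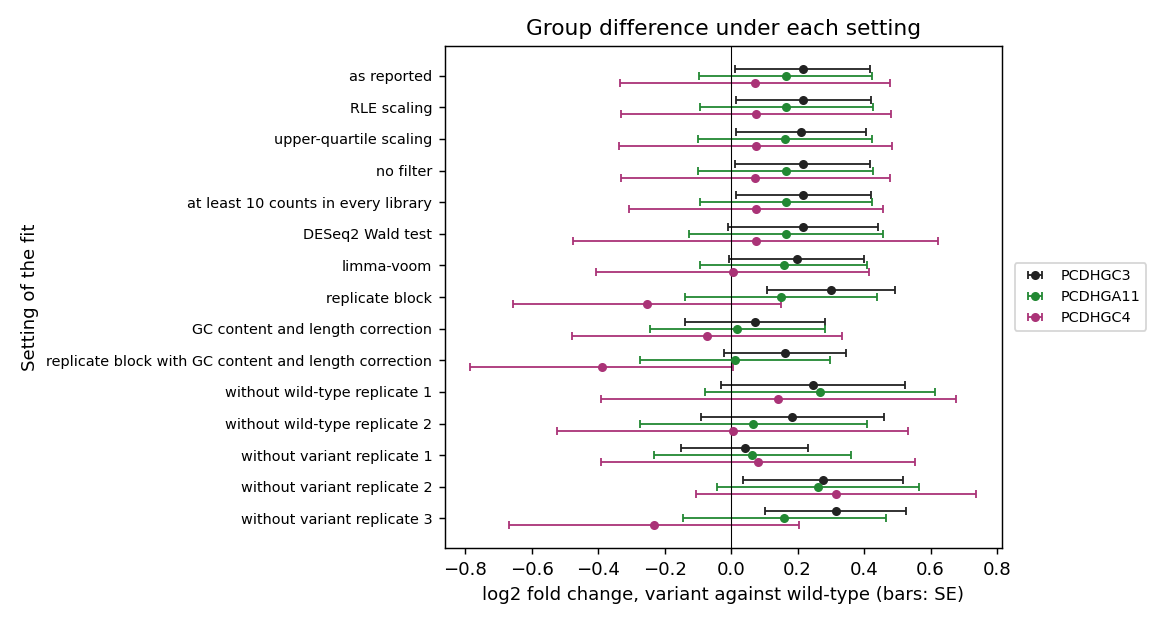
Log2 fold change between variant and wild-type libraries for the 3 members under each setting of the fit, with bars of 1 SE. The points of PCDHGC3 and PCDHGA11 stay above 0, and those of PCDHGC4 lie on both sides of it, from −0.39 to 0.32. Bars also cross 0 for PCDHGA11 as reported (0.16, SE 0.26). They do so for PCDHGC3 with the GC content and length correction (0.07, SE 0.21).

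Genes known to govern the clusters were taken from lists and read in the same fit. At an adjusted p under 0.05, 0 genes of these lists were called by edgeR, by DESeq2 (which called 0.196% of all genes) or by limma-voom. Of 11 genes for CTCF, cohesin and its loading and release factors, 0 had an unadjusted p under 0.05, against 7.62% of all tested genes. The median log2 fold change of the list was 0.05, beside 0.003 over all tested genes. CTCF itself stood at 98.1 and 104 CPM in wild type and at 141, 117 and 106 CPM in variant 1, 2 and 3. The groups did not overlap for CTCF, as at 24.8% of all tested genes. CTCF had a log2 fold change of 0.26 (SE 0.17, edgeR adjusted p 0.719). NIPBL, which loads cohesin, also had 0.26 (SE 0.18, edgeR adjusted p 0.728). Without variant 1 both stood at 0.14, and NIPBL was at 0.15 without wild-type 1. Variant 1 was the highest library for CTCF and NIPBL, as it was for PCDHGC3 and PCDHGA11. It was the highest for 6 of the 11 genes of the list and for 21.8% of all tested genes. In the lists read next to this one, it was the highest for 5 of 11 genes for cleavage and signalling. It was also the highest for 4 of 7 protocadherins and FAT cadherins outside the clusters and for 3 of 15 neighbours on 5q31. Whether the levels of the CTCF and cohesin genes bear on the members was not tested.

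Of 14 genes for DNA methylation and heterochromatin, 0 passed the adjusted threshold. At an unadjusted p under 0.05, met by 7.62% of all tested genes, 2 were called, both higher in the variant. These were EHMT2 and EHMT1, which encode the partner histone H3 lysine methyltransferases G9a and GLP. Their log2 fold changes were 0.53 (SE 0.15) and 0.49 (SE 0.15) (edgeR adjusted p 0.616 for both). With the correction EHMT1 was at 0.30 (unadjusted p 0.0748), and without wild-type 2 neither gene had an unadjusted p under 0.05 (0.0518 for EHMT1). The median of the list was 0.15. DNMT3B, the methyltransferase tied to methylation of protocadherin promoters, stood at 28.9 and 32.0 CPM in wild type and 47.3, 29.3 and 29.3 CPM in variant 1, 2 and 3. SMCHD1, a chromatin protein that helps silence the clusters, stood at 146 and 106 CPM in wild type and 193, 122 and 137 CPM in the variant. For both genes variant 1 was the highest library, and the groups overlapped. Variant 1 was the highest for 6 of the 14 genes of the list and for 21.8% of all tested genes.

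Of 11 genes for the proteases that cleave protocadherins and for their signalling partners, 0 passed the adjusted threshold. Only 1, RET, had an unadjusted p under 0.05, as did 7.62% of all tested genes. RET encodes a receptor tyrosine kinase that associates with clustered protocadherins. It had 11 and 4 counts in wild type and 23, 22 and 32 counts in variant 1, 2 and 3. The groups did not overlap for RET, as at 24.8% of all tested genes. Its log2 fold change was 1.74 (SE 0.50, edgeR adjusted p 0.616). The RET value was 2.65 without wild-type 1 and 1.19 without wild-type 2, where the unadjusted p was 0.0563. Wild-type 2, on 4 counts, lay −2.37 from the median of the other libraries on the log2 scale. PSENEN, a gamma-secretase subunit, had −0.31 (SE 0.16, edgeR adjusted p 0.676). The median of the list was 0.08.

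The genes beside the clusters on 5q31 were read for a shift of the whole region. Of 17 listed neighbours 15 were tested, with 4 higher and 11 lower in the variant. Their median log2 fold change was −0.05, beside 0.003 over all tested genes, and whether the region shifted was not tested. None of the 15 passed the adjusted threshold, and 1 had an unadjusted p under 0.05, as did 7.62% of all tested genes. This was NDUFA2, a subunit of respiratory complex I, at −0.52 (SE 0.17, edgeR adjusted p 0.616). The unadjusted p of NDUFA2 was 0.0542 without variant 2, 0.0581 without wild-type 1 and 0.0511 without wild-type 2. FCHSD1 followed at −0.38 (SE 0.21, edgeR adjusted p 0.691), and at −0.19 without wild-type 2. TAF7, a subunit of the transcription factor TFIID that lies between the beta and gamma clusters, stood at 170 and 164 CPM in wild type and 142, 135 and 170 CPM in variant 1, 2 and 3. DIAPH1, a formin gene just beyond the gamma cluster, stood at 214 and 224 CPM in wild type and 235, 244 and 218 CPM in the variant. Variant 1, the highest library of PCDHGC3, was the highest at 3 of the 15 neighbours (SLC35A4, TMCO6 and DELE1), or 20%, and at 21.8% of all tested genes.

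Among the listed protocadherins and FAT cadherins outside the clusters, 0 of 7 passed the adjusted threshold. Only 1, FAT1, had an unadjusted p under 0.05, as did 7.62% of all tested genes. FAT1, a giant cadherin, had a log2 fold change of 0.40 (SE 0.16, edgeR adjusted p 0.627). With the correction for GC content and length FAT1 was at 0.26 (unadjusted p 0.0686), and the unadjusted p was 0.0912 without variant 1, 0.0818 without wild-type 1 and 0.124 without wild-type 2. FAT2 had 0.28 (SE 0.38, edgeR adjusted p 0.871), with 0.04 after the correction and between 0.07 and 0.52 when 1 library was left out. The median of the 7 was 0.15.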

How the data were processed

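The authors deposited raw read counts per Ensembl gene for 5 libraries, per the labels made from strand-specific mRNA and single-end reads of 50 bases. The submitters' processing notes name hg38, HISAT2, SAMtools and HTSeq. Versions, annotation, strand setting and any gene filter are not given in the sources used here. Columns carry the library names of the labels. Symbols came from a gene name table (16627 rows) and GENCODE release 29 (46 rows), and 4 rows had none.

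Genes were filtered with filterByExpr, which kept 16310, scaled by TMM and fitted in edgeR 4.0.16 (R 4.3.3) by its robust quasi-likelihood method, with group as the only term. P-values are two-sided and Benjamini-Hochberg adjusted over all tested genes. On simulated counts the edgeR test recovered 6% of 1.5-fold, 42% of 2-fold, 92% of 4-fold and 98% of 8-fold changes. The 4-fold rule recovered 99% of single libraries set 8-fold above the others. It was tried only on genes with more counts than PCDHGC4. GC content and length came from each gene's longest transcript in GENCODE release 29 (splines with 5 degrees of freedom per library). Alternatives were other scalings and filters, DESeq2 1.42.0, limma-voom (limma 3.58.1), a replicate block and leaving out each library.

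Values in every library are given for the members, for SIRT3, and for listed genes with a bearing on them. For each list the 2 genes with the smallest p are named. DNMT3B, SMCHD1, TAF7 and DIAPH1 were added after their values were seen. Members and lists were chosen with earlier results of these data known. Libraries were compared over the members by distance rather than by rank correlation, because 3 genes give no interpretable rank correlation. A further marker gene is not reported here.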

Additional observations from a re-analysis of the deposited data

How the results depend on the processing

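The alternatives gave 107 values, of which 102 had the direction and the call of the reported value or lay within its spread. Some could not differ. All 3 members had at least 10 counts in every library, and an 8-fold rule cannot call genes that a 4-fold rule does not. A fold change counted as the same when its sign and call held, whatever its size. PCDHGC3 was so counted at 0.04 without variant 1, beside 0.22 as reported. Under each alternative run, 0 of the 3 members had an adjusted p under 0.05 and 0 had a library 4-fold from the median of the others. Over all genes, DESeq2 called 32, the fit without variant 3 called 4, the fit without wild-type 1 called 1 and every other fit called 0. Mean distance over the members between groups minus within groups moved from −0.084 to −0.147 with the correction for GC content and length. The log2 fold change of PCDHGC4 turned to −0.25 with the replicate block, to −0.0712 with the correction for GC content and length, to −0.39 with both and to −0.23 without variant 3. Leaving out 1 library at a time gave −0.23 to 0.32 for PCDHGC4, 0.04 to 0.31 for PCDHGC3 and 0.06 to 0.27 for PCDHGA11. The adjusted p ran from 0.634 to 0.998 for PCDHGC3, from 0.885 to 0.998 for PCDHGA11 and from 0.818 to 0.999 for PCDHGC4. With the replicate block PCDHGC3 was at 0.30 and PCDHGA11 at 0.15. The labels give the libraries of the block only a number in common. Deviations of same-numbered libraries from their group means had correlations of 0.12 and −0.11. With 2 wild-type libraries these deviations mirror each other, so the correlations cannot show whether libraries were paired. The log2 ratio of the summed level ran from 0.0464 without variant 1 to 0.27 without variant 2. Fits without a wild-type library assume that the lone one varies like the variant libraries. Depth limits PCDHGC4 most, at 18 to 40 counts in a library, where counting error alone spans the group difference.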
